A study of Homo sapiens with 32 samples.

Results

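The genes described here are 43 genes of DNA replication and S phase, named in a list by their known roles. The rule holds no measured value, but the list was chosen with earlier results of these data known. All 43 were found among the 18980 coding genes listed for each library. They fall into 16 genes of origin licensing and the replicative helicase, 18 of the clamp, its loader and the polymerases, 3 of nucleotide supply, 3 of replication-coupled chromatin and 3 E2F transcription factors. RNA was sequenced from RH4, an established line of human alveolar rhabdomyosarcoma, after treatment with compounds that the series describes as inhibitors or degraders of the acetyltransferases CBP and p300. A485, a known inhibitor of their catalytic activity, and dCBP, IHK-44 and JQAD were each given for 2 h or 6 h, at a dose of 1000 nM or of 100 nM. The labels do not say which of the last 3 inhibit and which degrade. Controls were the solvent DMSO and NT, an abbreviation left unexplained in the labels, with 1 library each at 2 h and at 6 h. The series has 32 samples, of which the 20 of RNA-seq are described, while 11 of ChIP-seq and 1 of ChRO-seq were not analysed here.

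Every condition had 1 library. The 2 doses of a compound at a time, and DMSO with NT, therefore stood in for replicates. All groups are the same line grown in the same way, and the labels do not say that libraries came from separate cultures, so p-values measure only the spread between these libraries. Levels are given as deposited CPM (counts scaled to 1000000 over the coding genes), with the value at 1000 nM before that at 100 nM for each compound. Changes are log2 differences from DMSO and NT of the same time, fitted with edgeR's quasi-likelihood test over 13260 genes, and a gene is called where the Benjamini-Hochberg adjusted p over those genes is under 0.05. In bulk RNA, fewer cells in a phase and less RNA per cell cannot be told apart.

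Replication starts at origins that the origin recognition complex marks and on which CDC6 and CDT1 load the ring-shaped MCM helicase. CDC45 and the GINS complex then switch the helicase on, polymerase alpha with its primase lays down primers, and the clamp PCNA, loaded by replication factor C, holds the main polymerases to the template. Many of these genes are switched on together at the passage from G1 into S phase by E2F factors, once cyclin-dependent kinases have released E2F from the retinoblastoma protein, and CBP and p300 are known partners of E2F1 in activating transcription.

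Depth ran from 13466631 to 16799327 coding counts per library, and the lowest count of any of the 43 genes in any library was 92, for POLE2. All 43 passed the filter on low counts. The line was checked by its markers: MYOD1 lay at 508 CPM or more and MYOG at 264 or more in the 4 control libraries, whereas PTPRC, CD3E, EPCAM, KRT5, PECAM1, CDH5 and ALB were at most at 0.872 CPM in any library. NT and DMSO differed in none of the 43 genes by 1.5-fold, with a median log2 difference of -0.08 at 2 h and -0.02 at 6 h.

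In control cells these genes were expressed at widely different levels. Per length, as deposited TPM averaged over the 4 controls, TYMS (thymidylate synthase, which makes the DNA-specific nucleotide dTMP) was highest at 308, followed by PCNA at 207 and MCM7 at 176. CHAF1B, a subunit of the histone chaperone CAF-1, was lowest at 3.62, and POLE2, the second subunit of polymerase epsilon, was next at 5.54. E2F1 at 86.8 TPM exceeded E2F2 at 23.2 and E2F8 at 8.88.

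At 6 h, relative to the coding genes as a whole, dCBP and IHK-44 left most replication genes at or modestly above control, while a few fell. On deposited TPM the median of the 43 lay below control in 3 of the 4 libraries of these compounds. That scale also moved with 100 nM JQAD, where the median was -0.26 at 2 h and 0.21 at 6 h. With dCBP 17 of the 43 rose and 4 fell, against 45.5% of all tested genes called (23.2% higher and 22.4% lower). With IHK-44 17 rose and 3 fell, against 42.1% of all genes (20.7% higher and 21.4% lower). The shares called in all, 21 and 20 of 43, were near the background. The median log2 change of the 43 was 0.21 for each of these compounds, beside 0.07 (dCBP) and 0.06 (IHK-44) over all tested genes. With A485 2 rose (ORC1 and RFC5) and 1 fell (E2F2), against 16.6% of all genes, and the median of the 43 was 0.03. With JQAD edgeR called 0 of 43 and 0% of all genes. There 1 of the 43 and 284 of all genes had an unadjusted p under 0.05, DESeq2 and limma called 0, and the median was 0.01.

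The number of calls rested on single controls. Without DMSO at 6 h 12 of the 43 were called for dCBP, and 13 without NT at 6 h. For IHK-44 the count was 12 without NT and 13 when its own 1000 nM library was left out, both of 6 h. For A485 it was 1 without DMSO, NT or 1000 nM A485 at 6 h, 6 without the 100 nM library and 5 without either dCBP library at 6 h. None of the called genes changed sign in any of the 29 fits, the reported one included, all of which scale within coding genes. Scaling mattered more for the rises: with library totals in place of TMM factors the median of all tested genes at 6 h moved from 0.07 to 0.22 for dCBP and from 0.06 to 0.23 for IHK-44. Then 30 of the 43 were higher and 3 lower for dCBP, and 29 and 2 for IHK-44, while over all genes the calls went from 3074 higher and 2964 lower to 4703 and 2158 (dCBP) and from 2742 and 2842 to 4699 and 2166 (IHK-44). The changes given here are those with TMM scaling.

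Deposited TPM are scaled over more than the coding genes, and there the level of all coding genes shifted between arms. The coding genes held 39.3% and 39.9% of TPM in DMSO and NT at 6 h, 35.4% and 27.9% in dCBP, 31.2% and 31.7% in IHK-44, 49.6% and 47.5% in A485 and 42.5% and 45.5% in JQAD. On log2(TPM + 1) against the mean of DMSO and NT, the median of the 43 was 0.07 and -0.26 in dCBP and -0.08 in each IHK-44 library, beside -0.06, -0.49, -0.26 and -0.25 for genes of like level. A485 had 0.52 and 0.33 beside 0.44 and 0.34. JQAD, for which no gene was called, had 0.095 and 0.211 beside 0.041 and 0.222 at 6 h. At 2 h JQAD had 0.054 and -0.256 beside 0.026 and -0.272, so TPM shifted between libraries there too. The replication genes thus lay above the like-level median in all 4 dCBP and IHK-44 libraries on this scale too, while whether they lay above control depended on the scale. What the remaining share of TPM holds was not analysed here.

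**Figure D1:**
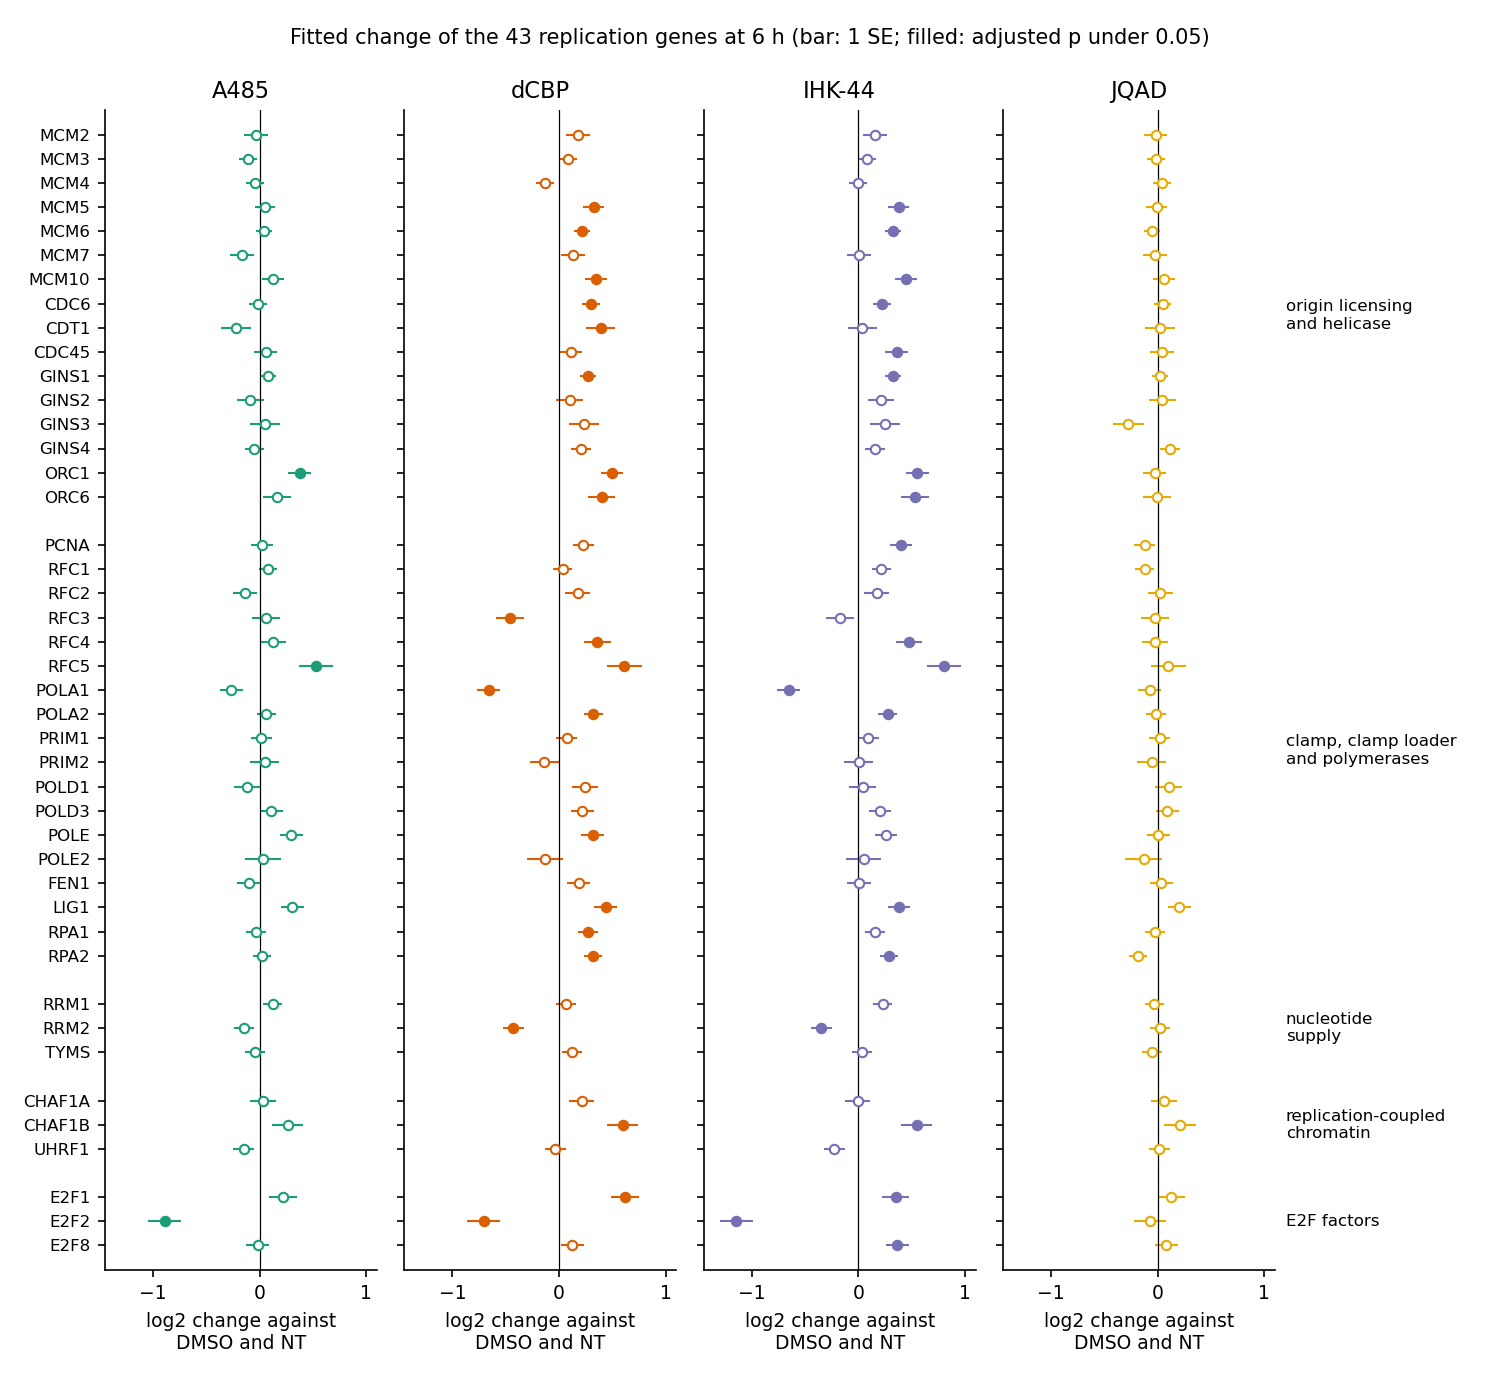
Fitted log2 change of each of the 43 genes at 6 h against DMSO and NT (horizontal axis), by compound, with genes ordered by role; bars are 1 SE and filled points have an adjusted p under 0.05 (edgeR). With dCBP and IHK-44 most points lie right of 0, with POLA1, RRM2 and E2F2 clearly left of it, and with JQAD the points stay between -0.27 and 0.21.

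Genes of like level were set beside them. The 43 genes averaged between 9.10 CPM (POLE2) and 458 CPM (TYMS) over the 20 libraries, and 9446 other tested genes lay in that range. Those genes had a median change of 0.03 at 6 h for dCBP and for IHK-44, with 10th and 90th percentiles of -0.82 and 0.58 (dCBP) or -0.85 and 0.53 (IHK-44). The same percentiles of the 43 replication genes were -0.14 and 0.43 (dCBP) or -0.14 and 0.47 (IHK-44). A change of 2-fold or more was fitted for 0 of the 43 with dCBP and for 1 (E2F2) with IHK-44, beside 9.79% and 9.56% of the genes of like level. The gap varied with level. Among genes averaging 150 CPM or more, 13 replication genes had medians of 0.12 (dCBP) and 0.16 (IHK-44), and 1544 others had medians of -0.15 and -0.13. From 50 to 150 CPM 17 replication genes had 0.27 and 0.16, beside -0.03 and -0.01 in 3324 others. Below 50 CPM the sets lay closer, with 0.17 and 0.25 in 13 replication genes beside 0.13 and 0.14 in 4764 others.

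**Figure D2:**
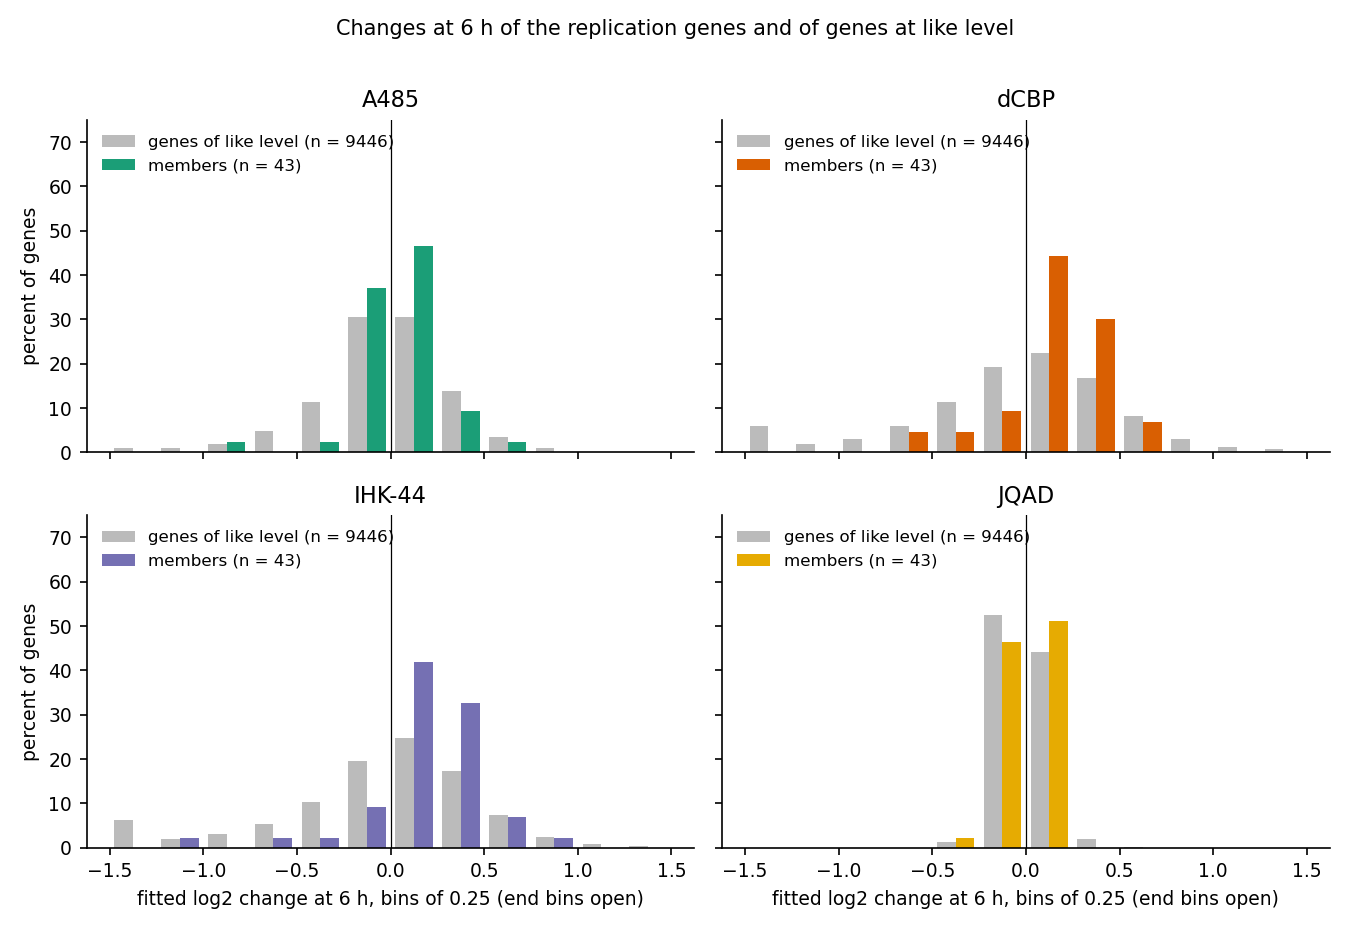
Percent of genes (vertical axis) in each bin of fitted log2 change at 6 h (horizontal axis), for the 43 replication genes in colour and 9446 other genes of like level in grey. With dCBP and IHK-44 the grey bars reach into the open bin at the left, where no replication gene lies.

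The E2F factors split in opposite directions, so their promoters are shown first. RefSeq windows from 250 bases before to 50 after the start site (GRCh38.p14) were matched for 37 of the 43 genes. Letters of the E2F site (TTTCCCGC, TTTCGCGC, TTTGCCGC or TTTGGCGC, on either strand) occurred in 20 of the 37 windows, or 54.1%, beside 5.27% of the windows of 10785 tested genes. CCAAT occurred in 59.5% beside 36.8%, and the E-box CACGTG in 13.5% beside 9.88%. All were searched on both strands, and none of these motifs is contained in another. The 150 bases before the start are printed for 2 genes that fell (E2F2, POLA1) and 2 that rose (E2F1, RFC5), a choice made after their values were seen that sets the E2F factors against each other beside the gene with the largest mean rise and a large fall, read 5′ to 3′ on the gene's strand, with matches to the E2F letters in capitals.
E2F2, chr1:23531234-23531383, minus strand: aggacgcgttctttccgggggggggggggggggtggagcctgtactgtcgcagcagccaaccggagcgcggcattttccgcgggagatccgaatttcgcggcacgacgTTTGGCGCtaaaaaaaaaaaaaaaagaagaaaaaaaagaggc
POLA1, chrX:24693768-24693917, plus strand: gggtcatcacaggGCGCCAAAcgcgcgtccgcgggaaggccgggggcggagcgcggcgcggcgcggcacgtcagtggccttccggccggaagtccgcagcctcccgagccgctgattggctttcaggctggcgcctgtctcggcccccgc
E2F1, chr20:33686386-33686535, minus strand: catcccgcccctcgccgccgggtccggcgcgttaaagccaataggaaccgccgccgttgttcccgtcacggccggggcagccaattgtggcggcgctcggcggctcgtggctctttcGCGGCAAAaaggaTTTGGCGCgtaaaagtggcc
RFC5, chr12:118016553-118016702, plus strand: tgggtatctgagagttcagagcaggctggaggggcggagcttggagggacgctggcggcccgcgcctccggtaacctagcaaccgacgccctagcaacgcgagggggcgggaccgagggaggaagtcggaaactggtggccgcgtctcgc
E2F2 and E2F1 hold the same 8 letters close to their start, at bases 42 to 35 and 20 to 13 before it, and E2F1 holds a second match at bases 33 to 26. POLA1 has its match farther up, at bases 137 to 130, on the other strand, and the window of RFC5 has none. CHAF1B and ORC1, whose mean rises also exceeded that of E2F1, have no match either. The median change at 6 h was 0.20 in the 20 genes with them and 0.21 in the 17 without for dCBP, and 0.19 and 0.22 for IHK-44. A match is a description of letters and not a measured site.

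E2F2, an activating E2F factor, fell most among the 43 genes. At 2 h E2F2 stood at 120.0 CPM in DMSO, 114 in NT, 80.8 and 97.2 in A485, 85.1 and 85.04 in dCBP, 69.3 and 76.9 in IHK-44 and 116 and 119 in JQAD. At 6 h E2F2 stood at 89.3 CPM in DMSO, 92.7 in NT, 43.3 and 60.6 in A485, 57.0 and 67.2 in dCBP, 45.8 and 46.8 in IHK-44 and 93.0 and 81.1 in JQAD. All 12 libraries of A485, dCBP and IHK-44 lay below all controls and JQAD of the same time, with the lowest value in 1000 nM A485 at 6 h. The fitted change at 6 h was -1.14 (SE 0.15, adjusted p 2.79e-05) for IHK-44, -0.89 (SE 0.15, adjusted p 0.00333) for A485 and -0.71 (SE 0.15, adjusted p 0.0014) for dCBP, with edgeR. It was -0.07 (SE 0.15, adjusted p 1) for JQAD. At 2 h the edgeR change was -0.73 for IHK-44 (adjusted p 0.0102), and -0.51 for dCBP and -0.44 for A485 missed the threshold (adjusted p 0.0562 and 0.236). For dCBP and IHK-44 at 6 h the call held in all 29 settings, and for A485 in 28. With DMSO as the only control the A485 value was -0.86 (adjusted p 0.0608). At 2 h the IHK-44 call was lost without DMSO, NT or 1000 nM IHK-44 at 2 h (adjusted p 0.0757, 0.0629 and 0.169).

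E2F1 moved the other way. At 6 h E2F1 stood at 209.7 CPM in DMSO, 207 in NT, 279 and 236 in A485, 297 and 413 in dCBP, 294 and 303 in IHK-44 and 242 and 215 in JQAD. At 2 h E2F1 stood at 243 CPM in DMSO, 215 in NT, 273 and 263 in A485, 276 and 256 in dCBP, 256 and 251 in IHK-44 and 238 and 251 in JQAD. The 100 nM dCBP library at 6 h stood far above every other library, and the other dCBP library lay among those of IHK-44 and 1000 nM A485. E2F1 rose with dCBP by 0.62 (SE 0.13, adjusted p 0.00106) and with IHK-44 by 0.35 (SE 0.13, adjusted p 0.0369), with edgeR. The call for IHK-44 was lost in 8 of 28 other settings, with adjusted p up to 0.15 (DMSO as the only control, or without its 100 nM library at 6 h), and among the single libraries also without DMSO, NT, 1000 nM IHK-44 at 6 h or 1000 nM JQAD at 2 h (adjusted p 0.103, 0.125, 0.0821 and 0.0516). The call for dCBP held in all 29, but its size rested on the 100 nM library at 6 h, without which the change was 0.34 (adjusted p 0.0151). A485 gave 0.22 (SE 0.13, adjusted p 0.249).

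E2F8, an atypical factor that represses E2F targets, rose with IHK-44 at 6 h. Its library values are given although it was outside the rule for named genes, a choice made after they were seen. At 6 h E2F8 stood at 25.4 CPM in DMSO, 25.1 in NT, 28.3 and 24.7 in A485, 33.0 and 28.5 in dCBP, 35.6 and 37.6 in IHK-44 and 26.2 and 27.4 in JQAD. At 2 h E2F8 stood at 35.4 CPM in DMSO, 35.0 in NT, 31.4 and 28.9 in A485, 33.2 and 31.1 in dCBP, 28.3 and 33.4 in IHK-44 and 35.6 and 35.6 in JQAD. The IHK-44 libraries at 6 h were the highest of that time, while at 2 h those of DMSO, NT and JQAD were the highest. Against 6 h controls the edgeR change with IHK-44 was 0.37 (SE 0.11, adjusted p 0.0109), and 0.12 for dCBP, -0.02 for A485 and 0.08 for JQAD were not called. The IHK-44 call was lost without NT or 100 nM IHK-44 at 6 h, with changes of 0.363 and 0.305. It was also lost with DMSO or NT as the only control, with changes of 0.356 and 0.376. In the edgeR fit with a time term and 1 level per compound the change was only 0.07 (adjusted p 0.632). That fit pools 6 h with 2 h, where the IHK-44 change was -0.24.

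The ratio of E2F1 to E2F2 within a library does not depend on scaling. At 6 h it was 2.23 to 2.66 in DMSO, NT and JQAD (4 libraries), 5.22 and 6.15 in dCBP, 6.42 and 6.46 in IHK-44, and 6.45 and 3.90 in 1000 nM and 100 nM A485. At 2 h it was 1.88 to 2.11 in DMSO, NT and JQAD and 3.01 to 3.70 in dCBP and IHK-44. These ranges did not overlap at either time. All pairs of genes set against each other here were chosen after their values were seen and have no test.

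Among the 16 licensing and helicase genes at 6 h, dCBP raised 8, IHK-44 raised 8 and A485 raised 1, and none of the 3 compounds lowered any. Over all tested genes 23.2%, 20.7% and 7.87% were higher and 45.5%, 42.1% and 16.6% were called in either direction, so 8 of 16 is near the overall share called. The median change was 0.22 for dCBP and 0.24 for IHK-44. With library totals as scaling 13 of 16 were higher for each of these compounds and 0 lower.

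ORC1, an ATP-binding subunit of the origin recognition complex, changed most in this group. At 6 h ORC1 stood at 79.5 CPM in DMSO, 85.5 in NT, 123 and 105 in A485, 128 and 131 in dCBP, 143 and 129.8 in IHK-44 and 88.2 and 74.0 in JQAD. At 2 h ORC1 stood at 78.4 CPM in DMSO, 76.9 in NT, 110.4 and 89.0 in A485, 97.1 and 108 in dCBP, 111 and 106 in IHK-44 and 76.9 and 77.9 in JQAD. All libraries of A485, dCBP and IHK-44 exceeded every control and JQAD library of the same time. The edgeR change at 6 h was 0.49 (SE 0.11, adjusted p 0.00132) for dCBP, 0.55 (SE 0.11, adjusted p 0.000583) for IHK-44 and 0.38 (SE 0.11, adjusted p 0.0252) for A485. For dCBP and IHK-44 it was called in all 29 settings. For A485 the call was lost with either control alone and without DMSO, NT or 1000 nM A485 at 6 h (adjusted p 0.154, 0.0937 and 0.25).

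ORC6, the smallest subunit, had a noisier control. At 6 h ORC6 stood at 25.5 CPM in DMSO, 30.4 in NT, 37.2 and 29.4 in A485, 44.5 and 38.0 in dCBP, 46.7 and 44.2 in IHK-44 and 30.0 and 25.8 in JQAD. At 2 h ORC6 stood at 30.2 CPM in DMSO, 26.3 in NT, 40.3 and 35.0 in A485, 34.8 and 39.2 in dCBP, 39.6 and 36.2 in IHK-44 and 28.4 and 29.3 in JQAD. At 6 h the dCBP and IHK-44 libraries lay above DMSO and NT, although NT was higher than DMSO, at 30.4 against 25.5 CPM. The change was 0.40 (SE 0.13, adjusted p 0.0183) for dCBP and 0.53 (SE 0.13, adjusted p 0.00333) for IHK-44 with edgeR. Without DMSO at 6 h both calls were lost (adjusted p 0.178 and 0.0568), and without 1000 nM dCBP at 6 h that for dCBP was lost too (adjusted p 0.0956).

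CDC6, which loads the MCM ring together with CDT1, rose slightly. At 6 h CDC6 stood at 124 CPM in DMSO, 126 in NT, 143 and 119 in A485, 166 and 177 in dCBP, 172 and 155 in IHK-44 and 128 and 131 in JQAD. At 2 h CDC6 stood at 134 CPM in DMSO, 126 in NT, 149 and 135 in A485, 154 and 153 in dCBP, 153 and 154 in IHK-44 and 133 and 130.0 in JQAD. The dCBP and IHK-44 libraries lay above controls and JQAD at both times. The edgeR change at 6 h was 0.30 (SE 0.08, adjusted p 0.00819) for dCBP and 0.22 (SE 0.08, adjusted p 0.0459) for IHK-44. The latter was called in 15 of 29 settings. It was lost without DMSO, NT, 1000 nM or 100 nM IHK-44 at 6 h (adjusted p 0.149, 0.124, 0.268 and 0.059), and without 1000 nM or 100 nM IHK-44, 1000 nM dCBP or either JQAD library at 2 h (adjusted p from 0.0506 to 0.071).

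MCM2, a subunit of the helicase ring, was not called for any compound. At 6 h MCM2 stood at 202 CPM in DMSO, 201 in NT, 217 and 201 in A485, 233 and 274 in dCBP, 258 and 247 in IHK-44 and 221 and 177 in JQAD. At 2 h MCM2 stood at 219 CPM in DMSO, 196 in NT, 226 and 219.7 in A485, 239.9 and 216 in dCBP, 232 and 229.9 in IHK-44 and 215 and 207 in JQAD. The 4 dCBP and IHK-44 libraries at 6 h were the highest of that time, and the 2 JQAD libraries lay on either side of the controls. The fitted edgeR change was 0.18 (SE 0.11, adjusted p 0.198) for dCBP and 0.16 (SE 0.11, adjusted p 0.266) for IHK-44. With library totals it was 0.33 for each and called (adjusted p 0.0134 and 0.0154), and without 1000 nM dCBP at 6 h it was 0.32 and called for dCBP (adjusted p 0.0327).

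The other subunits of the ring did not move alike. MCM5 rose by 0.33 with dCBP and 0.38 with IHK-44, and MCM6 by 0.22 and 0.32. MCM3, MCM4 and MCM7 were not called, with changes from -0.13 (MCM4, dCBP) to 0.13 (MCM7, dCBP). MCM10, which helps to activate the loaded helicase, rose by 0.35 and 0.44. GINS1 rose by 0.27 and 0.33, whereas the other GINS subunits GINS2, GINS3 and GINS4 had changes of 0.10 to 0.25 that were not called. CDC45 rose with IHK-44 by 0.36 and was at 0.11 with dCBP, not called. CDT1, the licensing factor that is destroyed once S phase begins, rose with dCBP by 0.39 and was at 0.04 with IHK-44, not called. For dCBP the calls of CDT1, MCM5, MCM6 and MCM10 were each lost without DMSO (adjusted p 0.123, 0.0534, 0.07 and 0.0659) and without NT at 6 h (0.0784, 0.0532, 0.141 and 0.057). Those of CDT1 and MCM5 were also lost without 100 nM dCBP, with changes of 0.20 for each (0.285 and 0.11), those of MCM6 and MCM10 without 1000 nM dCBP (0.0955 and 0.0577), and that of GINS1 without NT (0.0645). For IHK-44 the call of CDC45 was lost without NT or 100 nM IHK-44 at 6 h (0.102 and 0.0822).

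Of the 18 clamp, loader and polymerase genes 7 rose and 2 fell with dCBP, 6 rose and 1 fell with IHK-44 and 1 rose with A485 at 6 h. The 9 and 7 of 18 called for dCBP and IHK-44 are near the 45.5% and 42.1% of all genes. With library totals 12 rose and 1 fell for dCBP and likewise for IHK-44. In polymerase alpha, and with dCBP also in the clamp loader, a subunit rose where a partner fell. The fall in the clamp loader was not called with library totals or limma.

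POLA1, the catalytic subunit of polymerase alpha, fell at 6 h. At 6 h POLA1 stood at 112 CPM in DMSO, 114 in NT, 88.0 and 112 in A485, 84.3 and 76.0 in dCBP, 78.6 and 83.6 in IHK-44 and 106 and 109.7 in JQAD. At 2 h POLA1 stood at 109 CPM in DMSO, 110.2 in NT, 109 and 106 in A485, 102 and 105 in dCBP, 106 and 108 in IHK-44 and 114 and 112 in JQAD. At 2 h all 10 libraries lay between 102 and 114 CPM, with those of dCBP and IHK-44 just below DMSO, NT and JQAD. At 6 h the dCBP and IHK-44 libraries lay below all others, and 1000 nM A485 was lower than 100 nM A485. Relative to controls the edgeR change was -0.66 (SE 0.11, adjusted p 0.000152) for dCBP, -0.65 (SE 0.11, adjusted p 0.000166) for IHK-44 and -0.27 (SE 0.11, adjusted p 0.0927) for A485, and the first 2 were called in all 29 settings. POLA2, its accessory subunit, rose by 0.32 with dCBP and 0.28 with IHK-44. Within a library POLA2 over POLA1 was 0.532 to 0.573 in DMSO, NT and JQAD at 6 h and 0.934 to 1.17 in dCBP and IHK-44. The primase subunits PRIM1 and PRIM2, which complete this complex, were not called, with changes from -0.14 to 0.10. The POLA2 call was lost for dCBP without DMSO or 100 nM dCBP at 6 h (adjusted p 0.0522 and 0.0696, the latter with a change of 0.21), and for IHK-44 without DMSO, NT or either IHK-44 library at 6 h (0.0948, 0.0718, 0.0931 and 0.0827).

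RFC5, a small subunit of the clamp loader, had the largest mean rise over dCBP and IHK-44, although with dCBP alone E2F1 rose as much. At 6 h RFC5 stood at 37.5 CPM in DMSO, 35.7 in NT, 68.0 and 44.7 in A485, 68.3 and 56.8 in dCBP, 76.1 and 67.6 in IHK-44 and 34.9 and 43.9 in JQAD. At 2 h RFC5 stood at 38.5 CPM in DMSO, 33.7 in NT, 49.7 and 40.9 in A485, 41.2 and 50.6 in dCBP, 51.5 and 44.9 in IHK-44 and 32.8 and 33.9 in JQAD. At 6 h the libraries of dCBP, IHK-44 and A485 exceeded the controls, though 100 nM A485 at 44.7 was close to 100 nM JQAD at 43.9. In the edgeR fit the change was 0.80 (SE 0.16, adjusted p 0.000796) for IHK-44, 0.61 (SE 0.16, adjusted p 0.00533) for dCBP and 0.53 (SE 0.16, adjusted p 0.0341) for A485. The call for dCBP was lost in 1 of 28 other settings (adjusted p 0.0536 with DMSO as the only control), and that for A485 with either control alone and without DMSO, NT or 1000 nM A485 at 6 h (adjusted p 0.12, 0.183 and 0.497). Without 1000 nM A485 the A485 change itself was 0.25, and without DMSO or NT it was 0.57 and 0.50.

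RFC4, another small subunit, rose with dCBP and IHK-44. At 6 h RFC4 stood at 33.2 CPM in DMSO, 31.0 in NT, 41.3 and 33.2 in A485, 49.0 and 43.1 in dCBP, 51.4 and 49.0 in IHK-44 and 31.6 and 31.7 in JQAD. At 2 h RFC4 stood at 29.1 CPM in DMSO, 30.0 in NT, 35.0 and 37.0 in A485, 36.0 and 35.5 in dCBP, 37.9 and 31.9 in IHK-44 and 25.1 and 33.6 in JQAD. All dCBP and IHK-44 libraries exceeded DMSO and NT at both times, and 100 nM JQAD at 2 h lay among them. Fitted with edgeR, the change was 0.48 (SE 0.12, adjusted p 0.00566) for IHK-44 and 0.36 (SE 0.12, adjusted p 0.0268) for dCBP. The call for dCBP was lost without DMSO, NT or 1000 nM dCBP at 6 h (adjusted p 0.0628, 0.149 and 0.107), and that for IHK-44 without NT at 6 h (0.0573).

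RFC3, also a small subunit, fell with dCBP by -0.46 (SE 0.13, adjusted p 0.00912) with edgeR and was at -0.18 with IHK-44, not called. For dCBP RFC3 missed the threshold with library totals (-0.30, adjusted p 0.0705 with edgeR) and with limma (-0.32, adjusted p 0.0533). Its 6 h values were 128 and 90.8 CPM in dCBP beside 137 and 133 in DMSO and NT, so the 100 nM library was the lower of the pair. Without it the change of RFC3 was -0.25 (adjusted p 0.15), without 1000 nM dCBP at 6 h it was -0.70 (adjusted p 0.000625), and without DMSO at 6 h the call was lost too (adjusted p 0.0576). RFC5 over RFC3 within a library was 0.268 to 0.312 in DMSO, NT and JQAD at 6 h and 0.518 to 0.626 in dCBP and IHK-44. RFC1, the large subunit, and RFC2 were not called, with changes of 0.03 to 0.22.

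PCNA, the sliding clamp, rose with IHK-44. At 6 h PCNA stood at 225 CPM in DMSO, 219 in NT, 268 and 213 in A485, 326 and 255 in dCBP, 348 and 311 in IHK-44 and 204 and 205 in JQAD. At 2 h PCNA stood at 227 CPM in DMSO, 215 in NT, 236 and 240.4 in A485, 265 and 259 in dCBP, 271 and 289 in IHK-44 and 223 and 229.7 in JQAD. At 6 h the dCBP doses stood apart, with 100 nM below 1000 nM A485. The edgeR change was 0.40 (SE 0.10, adjusted p 0.00446) for IHK-44 and 0.23 (SE 0.10, adjusted p 0.075) for dCBP. Without 100 nM dCBP at 6 h the dCBP value was 0.38 and called (adjusted p 0.0075), and without 1000 nM IHK-44 at 6 h the IHK-44 call was lost (adjusted p 0.0551).

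Among the remaining genes of this group LIG1, which seals nicks between Okazaki fragments, rose by 0.44 with dCBP and 0.38 with IHK-44. Without 100 nM dCBP at 6 h the dCBP change of LIG1 was 0.25 (adjusted p 0.0466). RPA2, a subunit of the protein that coats single-stranded DNA, rose by 0.32 and 0.29. RPA1, the large subunit of that protein, and POLE, the catalytic subunit of polymerase epsilon, rose with dCBP by 0.27 and 0.31, beside 0.15 and 0.26 with IHK-44, not called, and the difference between the compounds was not called for either (adjusted p 0.387 and 0.729). The dCBP calls of RPA1 and POLE were lost without NT at 6 h (adjusted p 0.0705 and 0.144) and without 100 nM dCBP at 6 h (0.148 and 0.0672), and that of RPA1 without DMSO at 6 h (0.113). For IHK-44 LIG1 and RPA2 were lost without NT at 6 h (0.0628 and 0.0657), and RPA2 without 1000 nM IHK-44 at 6 h (0.077). The edgeR fit with a time term and 1 level per compound, which pools 2 h and 6 h, did not call RPA1 for dCBP (0.107, adjusted p 0.288). There RPA2 was not called for dCBP (0.155, adjusted p 0.157) or IHK-44 (0.221, adjusted p 0.0544). With no filter on low counts RPA1 missed the threshold for dCBP (adjusted p 0.0614 with edgeR). FEN1, which trims flaps, and the polymerase subunits POLD1, POLD3 and POLE2 were not called, with changes between -0.13 and 0.24 for these compounds.

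Nucleotide supply showed a fall in 1 of 3 genes. RRM2 encodes the small subunit of ribonucleotide reductase, the subunit whose level limits the enzyme in S phase. At 6 h RRM2 stood at 294 CPM in DMSO, 282 in NT, 267 and 284 in A485, 249 and 229 in dCBP, 242 and 268 in IHK-44 and 299 and 286 in JQAD. At 2 h RRM2 stood at 289 CPM in DMSO, 263 in NT, 269.6 and 279 in A485, 265 and 284 in dCBP, 262 and 293 in IHK-44 and 287 and 298 in JQAD. At 6 h the 4 dCBP and IHK-44 libraries lay below all controls and JQAD, but 100 nM IHK-44 and 1000 nM A485 were alike. The edgeR change was -0.43 (SE 0.10, adjusted p 0.00184) for dCBP and -0.35 (SE 0.10, adjusted p 0.00812) for IHK-44. The call for IHK-44 was lost in 6 settings, among them library totals (change -0.18, adjusted p 0.0879), without DMSO at 6 h (0.0632) and without its 1000 nM library at 6 h (0.115), and that for dCBP held in all 29. RRM1, the large subunit, was at 0.07 and 0.23 and TYMS at 0.12 and 0.04, none called. RRM1 over RRM2 within a library was 0.519 to 0.549 in DMSO, NT and JQAD at 6 h and 0.704 to 0.855 in dCBP and IHK-44.

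Of the 3 chromatin genes CHAF1B rose. At 6 h CHAF1B stood at 10.8 CPM in DMSO, 10.7 in NT, 16.4 and 11.0 in A485, 18.4 and 17.8 in dCBP, 18.8 and 16.5 in IHK-44 and 11.9 and 12.9 in JQAD. At 2 h CHAF1B stood at 10.3 CPM in DMSO, 9.74 in NT, 13.9 and 12.97 in A485, 12.6 and 14.9 in dCBP, 14.7 and 13.5 in IHK-44 and 10.49 and 10.1 in JQAD. It was the gene of lowest level per length, and the dCBP, IHK-44 and 1000 nM A485 libraries at 6 h exceeded all others. The edgeR change was 0.60 (SE 0.15, adjusted p 0.00378) for dCBP and 0.55 (SE 0.15, adjusted p 0.00679) for IHK-44, and the latter was lost without 1000 nM IHK-44 at 6 h (adjusted p 0.0652). CHAF1A, its partner in CAF-1, was at 0.21 and -0.01, and UHRF1, which recruits the maintenance DNA methyltransferase, at -0.04 and -0.23, none called.

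**Figure D3:**
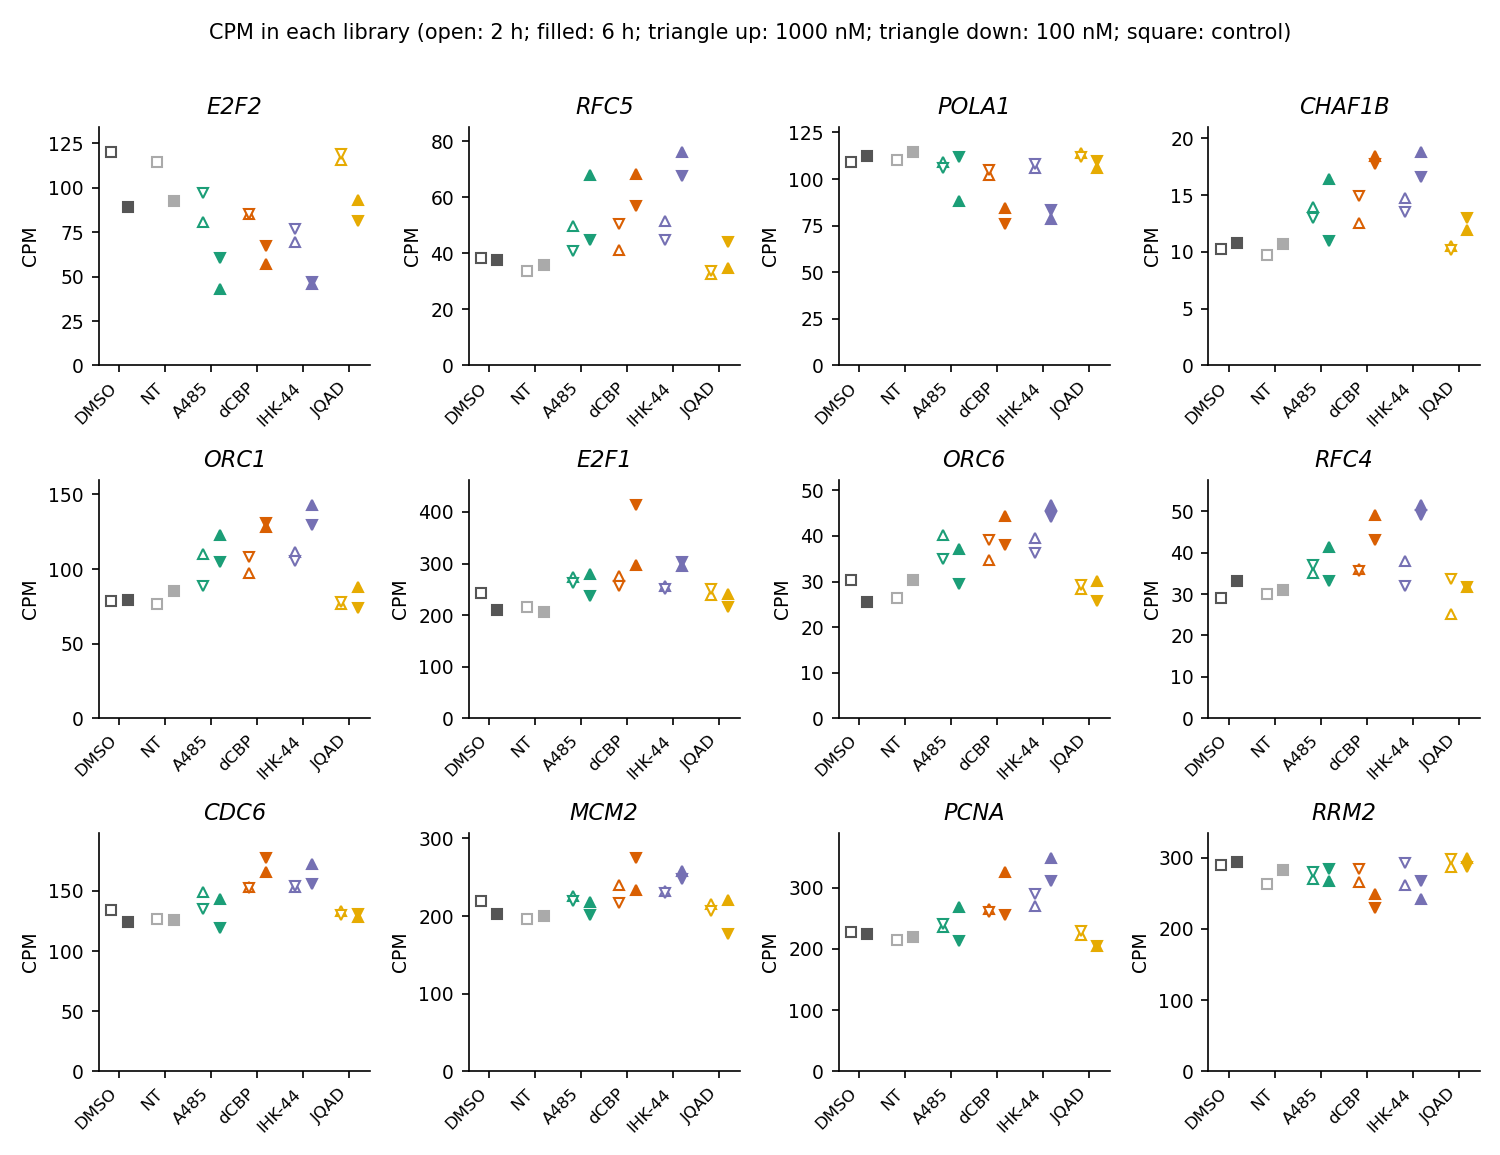
CPM of 12 replication genes in each of the 20 libraries (vertical axis, from 0), by arm, with open symbols for 2 h, filled for 6 h, upward triangles for 1000 nM, downward triangles for 100 nM and squares for controls. E2F2 falls from 89.3 CPM in DMSO to 45.8 in 1000 nM IHK-44 at 6 h, and POLA1 falls to 76.0 to 84.3 in dCBP and IHK-44 at 6 h.

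**Figure D4:**
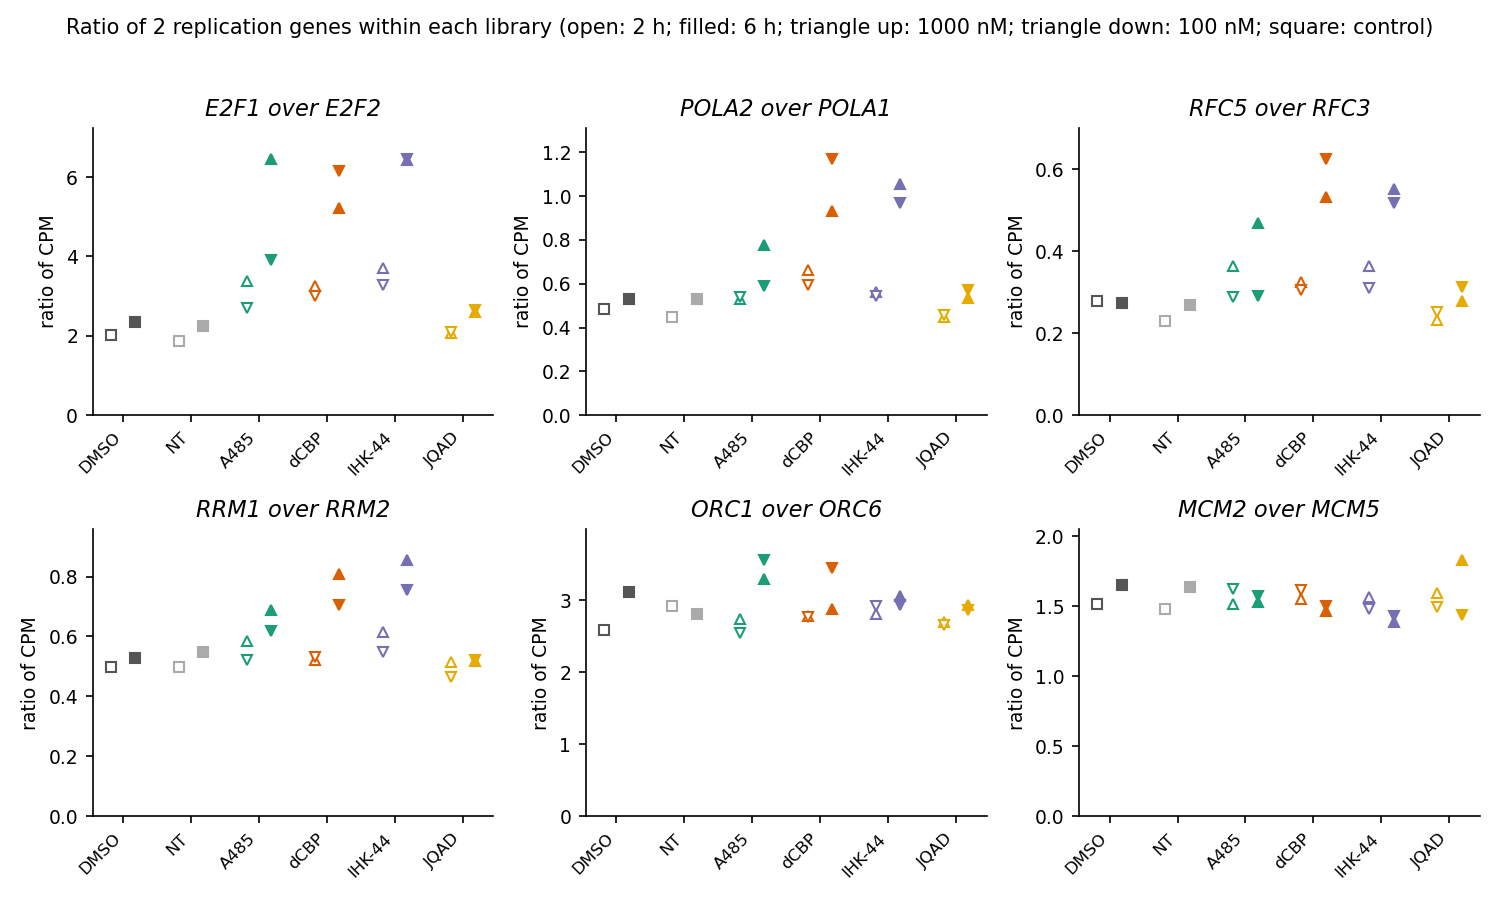
Ratio of the CPM of 2 replication genes within each library (vertical axis, from 0), with symbols for time and dose as named in the title. The 4 pairs in which a partner fell separate dCBP and IHK-44 from DMSO, NT and JQAD at 6 h, as in E2F1 over E2F2 (5.22 to 6.46 against 2.23 to 2.66), while ORC1 over ORC6 and MCM2 over MCM5 overlap.

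At 2 h few of these genes had moved. IHK-44 raised CDT1, GINS3 and ORC1, by 0.57, 0.68 and 0.43, and lowered E2F2, against 4.88% of all genes called. GINS3, a subunit of the GINS complex named here after its values were seen, stood at 2 h at 30.1 and 33.7 CPM in the IHK-44 libraries, beside 21.5 in DMSO and 16.9 in NT. The 4 calls became 0 without NT or without 1000 nM IHK-44 at 2 h, and 1 without DMSO or without 100 nM IHK-44 at 2 h. With dCBP edgeR called 0 of 43, against 5.63% of all genes. With A485 edgeR called 0 of 43 and 0.0452% of all genes, and with JQAD 0 and 0%. At an unadjusted p under 0.05 there were 12 of 43 for dCBP, 10 for A485 and 0 for JQAD, beside 22.5%, 11.8% and 1.04% of all genes. DESeq2 called 1 for dCBP and limma 3, and both called 0 for A485 and JQAD. For dCBP the count became 3 without 1000 nM dCBP at 6 h, 2 without either A485 library or 100 nM dCBP at 6 h, and 1 without either A485 library or 100 nM dCBP at 2 h. The median change of the 43 at 2 h was 0.14 for IHK-44, 0.09 for dCBP, 0.08 for A485 and 0.04 for JQAD.

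Whether the response at 6 h differed from that at 2 h was tested by an interaction of compound and time. POLA1 was called for dCBP, with a difference of -0.53 (SE 0.15, adjusted p 0.0387 with edgeR), against 9.06% of all genes. For IHK-44 POLA1 was called at -0.57 (SE 0.15, adjusted p 0.0246) and E2F8 at 0.60 (SE 0.15, adjusted p 0.0175), against 9.89% of all genes. These calls were fragile. That of POLA1 for dCBP was lost with library totals (difference -0.42, adjusted p 0.0626 with edgeR) and with limma (-0.41, adjusted p 0.0583). For dCBP the count became 0 without any 1 of 14 libraries (all but those of A485 and IHK-44 at 6 h, NT at 2 h and 1000 nM dCBP at 6 h). The POLA1 call was also lost without NT at 2 h (adjusted p 0.111), where the count of 1 was RPA2 in its place, and so in 15 of 20 such fits. The count became 6 without 1000 nM dCBP at 6 h. For IHK-44 it became 0 without DMSO at 2 h or 6 h, NT at 6 h or 1000 nM IHK-44 at 2 h, and 1 without NT at 2 h, 100 nM IHK-44 at either time or 1000 nM IHK-44 at 6 h. For A485 edgeR called 0 of 43 and 0.00754% of all genes, and for JQAD 0 and 0%. There 2 (A485) and 1 (JQAD) of the 43 had an unadjusted p under 0.05, and DESeq2 and limma called 0. Without 100 nM A485 at 6 h the A485 count became 1.

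Some of these genes differed between the times without a response to a compound. In DMSO, NT and JQAD, where no gene was called, 4 libraries at 6 h were set beside 4 at 2 h. Of the 43, 8 were higher at 6 h without overlap and 3 lower, beside 18.5% of 12174 genes without overlap in either direction (11.1% higher and 7.43% lower). The 3 lower are thus near the share over all genes. E2F2 was at 114 to 120.0 CPM at 2 h and 81.1 to 93.0 at 6 h, E2F8 at 35.0 to 35.6 and 25.1 to 27.4, and MCM5 at 132 to 144 and 121 to 123. Those higher at 6 h included MCM10, GINS1, POLA2, RRM1 and CHAF1B. The choice of these 8 libraries was made after the data were seen, and the comparison has no test.

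The 4 compounds were compared at 6 h at matched doses in 6 pairs, with p-values adjusted over the 6 pairs and all genes together. No difference in structure is named by the labels. Between A485 and dCBP 11 of the 43 differed, against 25.2% of all genes. CDT1 and E2F1 were lower with A485, by -0.62 (SE 0.14, adjusted p 0.00472) and -0.40 (SE 0.13, adjusted p 0.0329), and RFC3 and POLA1 higher, by 0.53 (SE 0.13, adjusted p 0.00907) and 0.39 (SE 0.11, adjusted p 0.0151), with edgeR. Between A485 and IHK-44 10 differed, against 16.2%. PCNA was lower with A485 by -0.38 (SE 0.10, adjusted p 0.0127) and POLA1 higher by 0.39 (SE 0.11, adjusted p 0.0162). Between A485 and JQAD 2 differed, ORC1 by 0.40 and E2F2 by -0.82, against 17.1%. Between dCBP and JQAD 19 differed, against 37.9%, and between IHK-44 and JQAD 17, against 36.9%. The largest of these differences were in E2F2 for IHK-44, at -1.08, and in E2F2 for dCBP, at -0.64.

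Between dCBP and IHK-44 edgeR called 0 of 43, against 2.76% of all genes. At an unadjusted p under 0.05 there were 5, and DESeq2 and limma called 1 each. The differences ran from -0.29 (RFC3) to 0.44 (E2F2), with 95% intervals whose outermost bounds were -0.58 and 0.78. The interval lay within 1.5-fold in either direction for 41 of the 43, which bounds the difference and does not show that the compounds act alike. This count rested on 1 library: without 1000 nM dCBP at 6 h 13 of the 43 differed between dCBP and IHK-44, 22 between A485 and dCBP, and 5 between A485 and JQAD. Without 100 nM A485 at 6 h 2 differed between A485 and dCBP, 0 between A485 and IHK-44 and 5 between A485 and JQAD. Without 100 nM dCBP at 6 h 2 differed between A485 and dCBP, and 7 without DMSO, NT or either IHK-44 library at 6 h or either A485 or JQAD library at 2 h. Between dCBP and IHK-44 1 differed without any 1 of the 4 A485 libraries or either dCBP library at 2 h. Without 1000 nM or 100 nM IHK-44 at 6 h 1 and 3 differed between A485 and IHK-44, without 1000 nM A485 at 6 h 1 between A485 and JQAD, without 100 nM or 1000 nM JQAD at 6 h 8 and 12 between dCBP and JQAD, and without 1000 nM IHK-44 at 6 h 10 between IHK-44 and JQAD.

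Dose was compared within compounds. In the fit of the 16 treated libraries 1000 nM A485 against 100 nM gave 0 of 43 called with edgeR, against 0.929% of 13137 genes. DESeq2 and limma also called 0, and 2 of the 43 had an unadjusted p under 0.05, namely E2F2 at -0.44 and RFC5 at 0.38. For dCBP, IHK-44 and JQAD the dose term gave 0 of 43 with edgeR, DESeq2 and limma and 0 at an unadjusted p under 0.05, against 0%, 0.107% and 0% of all genes. At 6 h the dCBP doses differed in opposite directions between genes. From 1000 nM to 100 nM PRIM2 went from 26.5 to 18.2 CPM and RFC3 from 128 to 90.8, whereas E2F1 went from 297 to 413 and MCM7 from 409 to 548. For IHK-44 at 6 h the gaps between doses on the log2(CPM + 1) scale stayed between -0.21 and 0.20.

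Single libraries were also set against the mean of DMSO and NT at 6 h, on the log2(CPM + 1) scale and at a threshold of 1.5-fold, with no test. In dCBP 5 of the 43 were higher and 1 lower at 1000 nM, beside 29.7% of 12174 genes past the threshold in either direction, and 6 higher and 0 lower at 100 nM, beside 35.2%. In IHK-44 8 were higher and 1 lower at 1000 nM, beside 32.2%, and 4 higher and 1 lower at 100 nM, beside 26.4%. In A485 1 was higher and 1 lower at 1000 nM, beside 23%, and 0 passed at 100 nM, beside 6.16%. In JQAD 0 passed at either dose, beside 0.69% at 1000 nM and 2.51% at 100 nM. These directions turn with the scale. On deposited TPM the counts higher and lower were 1 and 2 (1000 nM) and 0 and 9 (100 nM) in dCBP, 0 and 3 and then 0 and 2 in IHK-44, and 11 and 1 and then 2 and 0 in A485. Centred on the median of the genes of like level, they were 1 and 2 and then 2 and 2 in dCBP, 1 and 2 at each dose in IHK-44, and 1 and 1 and then 0 and 1 in A485.

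Genes around the 43 were described from lists of neighbouring function. Of 34 other replication genes 6 rose and 7 fell with dCBP and 6 rose and 3 fell with IHK-44 at 6 h, with medians of 0.14 for each. Over all tested genes 45.5% and 42.1% were called, a larger share than in this list. RECQL4, a helicase that acts at origins, and TK1, the thymidine kinase of nucleotide salvage, rose by 0.77 and 0.67 with dCBP and 0.43 and 0.48 with IHK-44. ORC5, a subunit of the origin recognition complex, fell by 0.79 and 0.39 on the log2 scale, and POLD4, a small subunit of polymerase delta, fell by 0.97 with IHK-44 and was at -0.50 with dCBP, not called. With library totals 17 rose and 3 fell for dCBP and 17 rose and 2 fell for IHK-44.

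Of 25 regulators of the passage from G1 to S phase 24 were tested (CDKN1C did not pass the filter). There 4 rose and 12 fell with dCBP and 5 rose and 11 fell with IHK-44, with medians of -0.29 and -0.21. Over all tested genes 45.5% and 42.1% were called, a smaller share than in this list. MYCN, a driver of growth in this tumour type, changed by -4.75 with dCBP and -5.20 with IHK-44, and MYC by -5.46 and -6.23. At 6 h MYC was at 67.6 and 73.3 CPM in DMSO and NT and at 0.83 to 2.05 in dCBP and IHK-44. CCNE2, a cyclin that promotes entry into S phase, rose by 0.50 and 0.65, and CDKN2C, an inhibitor of CDK4 and CDK6, by 0.59 and 0.51. With library totals 5 rose and 11 fell for dCBP and 7 rose and 9 fell for IHK-44.

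Of 20 mitotic genes 3 rose and 1 fell with dCBP and 5 rose and 1 fell with IHK-44, with medians of 0.07 and 0.18. The share called was below the 45.5% and 42.1% of all tested genes. KIF20A, a motor of late mitosis, rose by 0.34 and 0.35, and BUB1B, a spindle checkpoint protein, changed by -0.47 and -0.43. TTK and BUB1, also of the checkpoint, rose with IHK-44 by 0.50 and 0.32 and were at 0.22 and 0.11 with dCBP, not called. With library totals 9 rose for dCBP and 13 for IHK-44, while 0 fell for either. With JQAD none of the genes on these 3 lists was called at 6 h.

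**Figure D5:**
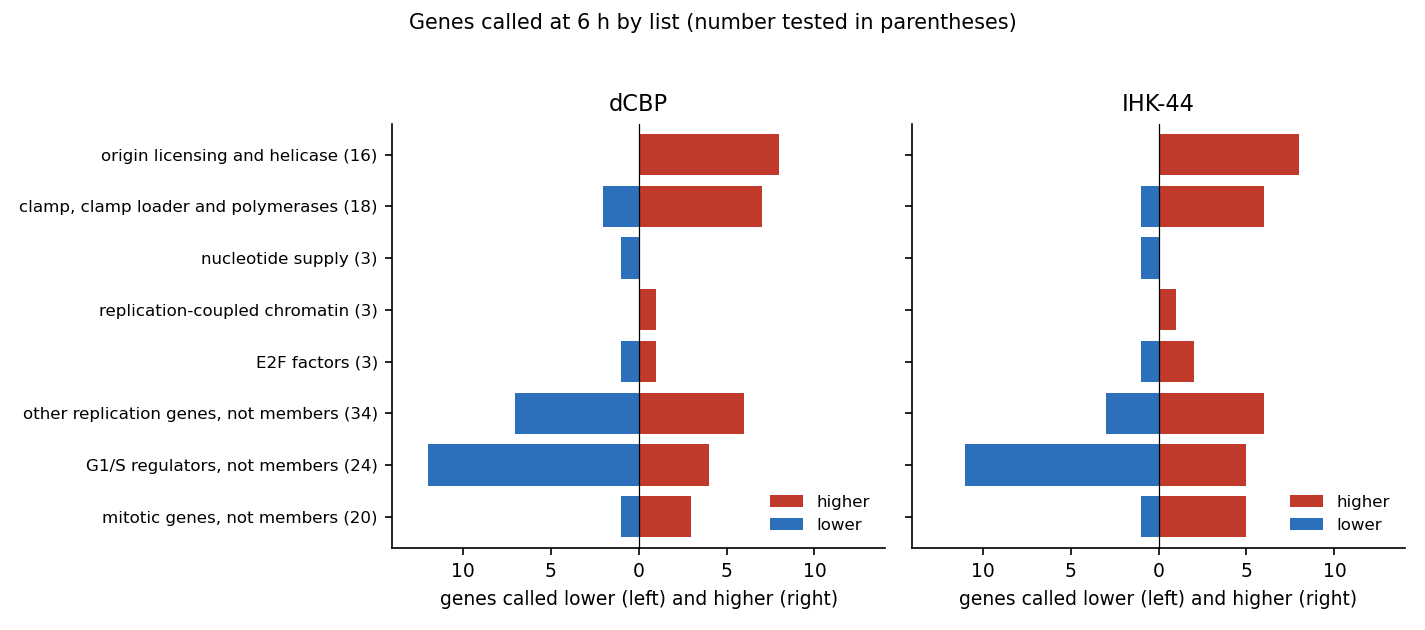
Number of genes called lower (to the left) and higher (to the right) at 6 h for dCBP and IHK-44, by list, with the number tested in parentheses. Over all tested genes 45.5% (dCBP) and 42.1% (IHK-44) were called in either direction. The G1/S regulators have more genes called lower than higher (12 and 4 for dCBP), and the licensing and helicase genes have 8 called higher and 0 lower for each compound.

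Gene span is given beside the falls. POLA1, RFC3 and PRIM2 are the 3 genes of the 43 that span over 100 kb in RefSeq (GRCh38.p14), at 303, 159 and 425 kb, and their median change at 6 h was -0.46 for dCBP and -0.18 for IHK-44. Over all tested genes the median was -0.19 and -0.13 for those above 100 kb and 0.18 and 0.10 for those under 20 kb. Across the 43 genes Pearson's r between change and log span was -0.44 for dCBP and -0.25 for IHK-44, given as a description across genes that share libraries. Spearman's rank correlation was -0.28 and -0.18. Among the 43, medians did not fall step by step below 100 kb. For spans under 20 kb, 20 to 50 kb and 50 to 100 kb they were 0.215, 0.214 and 0.245 (dCBP) and 0.216, 0.252 and 0.209 (IHK-44). E2F2 and RRM2, which also fell, span 26.0 and 88.4 kb, and the part of span in the changes was not tested.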

How the data were processed

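RNA-seq of 20 RH4 libraries was used, with 1 library per condition. STAR 2.5.3a and RSEM 1.3.3 are among the tools, and hg38 among the builds, in the submitters' processing notes, with no role given. Per the file headers the authors deposited, for coding genes, expected counts, TPM, FPKM and counts scaled to 1000000 (CPM); FPKM was not used. Expected counts, of which 88.2% were whole, were rounded. edgeR 4.0.16 (R 4.3.3) fitted all 20 libraries, as 10 cells of 2 (arm by time) with TMM factors, filterByExpr and 10 residual degrees of freedom; Benjamini-Hochberg p-values cover all genes tested, and for compound pairs all 6 pairs. The dose fit used the 16 treated libraries (4 residual degrees of freedom). Intervals are 95% (t, 10 residual degrees of freedom). Levels at 1 CPM rest on 13.5 to 16.8 counts. DESeq2 1.42.0, limma 3.58.1 on log2(CPM + 1), other scalings, no filter, either control alone, a time term with 1 level per compound, and leaving out each library were tried. Single libraries used a pseudocount of 1 and genes averaging at least 1 CPM. Library values are given for the 8 genes with the largest mean change for dCBP and IHK-44 at 6 h, and for E2F1, CDC6, MCM2, PCNA and RRM2, and up to 4 genes of each neighbouring list are named, the 2 highest and 2 lowest by that mean among those called. Scripts were tested on simulated data. The members and lists were chosen with earlier results of these data known.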

Additional observations from a re-analysis of the deposited data

Results flagged for a closer look

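Each of these is a difference between times or compounds that passed a test of the difference itself (edgeR's quasi-likelihood test, adjusted p under 0.05), given as the number of the 43 genes called. The response at 6 h differed from that at 2 h for 1 gene with dCBP (POLA1) and for 2 with IHK-44 (POLA1 and E2F8). Over all tested genes these shares were 9.06% and 9.89%. The calls of POLA1 and E2F8 were fragile for both compounds, and none held with either control alone. With DMSO and then NT alone the differences for IHK-44 were -0.552 and -0.582 (POLA1) and 0.611 and 0.596 (E2F8). The POLA1 call for dCBP was also lost with library totals and with limma. Between compounds at 6 h, 11 genes differed for A485 and dCBP (25.2% of all genes), 10 for A485 and IHK-44 (16.2%), 2 for A485 and JQAD (17.1%), 19 for dCBP and JQAD (37.9%) and 17 for IHK-44 and JQAD (36.9%). No cause of these differences was tested.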

How the results depend on the processing

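Counts are of the 43 genes called. No paired analysis was possible because every condition has 1 library, so no replicate number pairs samples. With library totals as scaling, and then with limma on log2(CPM + 1), the counts at 6 h were 5 and 5 (A485), 33 and 32 (dCBP) and 31 and 30 (IHK-44), with 3 and 3 for dCBP at 2 h and 2 and 2 for its time dependence. POLA1, the gene reported for the time dependence of dCBP, was not among those called under these 2 settings. Between compounds the counts were, under each of these settings, 17 for A485 and dCBP, 18 for A485 and IHK-44, 6 for A485 and JQAD, 1 for dCBP and IHK-44 and 28 for IHK-44 and JQAD. With DMSO alone, then NT alone, they were 0 and 1 (A485), 10 and 10 (dCBP) and 10 and 13 (IHK-44) at 6 h, 0 and 1 for IHK-44 at 2 h, and 0 and 0 for the time dependence of dCBP and of IHK-44. DESeq2 size factors, the DESeq2 test and no filter each gave 1 for dCBP at 2 h and 1 for dCBP and IHK-44, and no filter gave 6 for A485 and IHK-44. Leaving out 1 library in turn gave 1 to 6 for A485, 12 to 25 for dCBP and 12 to 24 for IHK-44 at 6 h, 0 to 3 for dCBP and 0 to 6 for IHK-44 at 2 h, and 0 to 1, 0 to 6 and 0 to 2 for the time dependence of A485, dCBP and IHK-44. Between compounds it gave 2 to 22 (A485 and dCBP), 0 to 15 (A485 and IHK-44), 1 to 5 (A485 and JQAD), 0 to 13 (dCBP and IHK-44), 8 to 23 (dCBP and JQAD) and 10 to 20 (IHK-44 and JQAD). Where a leave-out leaves 1 library in a cell, that library is assumed to vary like the others. Genes past the fold threshold summed over single libraries were 35, and 2 at 2-fold, 20 centred on genes of like level and 54 from the deposited TPM. On TPM at 6 h more genes passed downwards than upwards in dCBP and IHK-44, though the median of the 43 stayed above control in 1000 nM dCBP (0.07). For the 12 genes named by the rule, 615 values kept their side of the threshold, 48 fell short and 9 newly passed it, with 0 reversed. The cause of these shifts was not tested.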
